A study of Mus musculus with 15 samples.

Results

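A set of 9 genes of the B-cell lineage was followed in leukemic mouse spleen: Cd79a and Cd79b (the signalling chains of the B-cell receptor), Blk and Btk (kinases downstream of it), Ms4a1, Cd22 and Cd37 (surface proteins), and Pax5 and Ebf1 (transcription factors of B-cell identity). They were found as the probes whose gene symbol is one of these 9 names. Of the 9 genes, 8 had at least 1 probe on the bead array, with 13 probes in all; Cd79a had none under its symbol. Of the 18115 genes with a probe, 10474 passed a filter on detection, and 6 of the B-cell genes were among them (Cd79b, Blk, Btk, Cd22, Cd37 and Ebf1). Ms4a1 and Pax5 did not pass, so they are described by their values, and were tested only in a fit without the filter.

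A B cell reads antigen through a membrane immunoglobulin held in a complex with the Cd79a and Cd79b chains, whose tails are phosphorylated by Src-family kinases such as Blk and Lyn; Syk and Btk then pass the signal on. Pax5 and Ebf1 switch this programme on in B-cell precursors. The spleen normally holds many mature B cells in its follicles and marginal zones. Not every gene of the set is used by B cells alone: Btk is also known from myeloid cells, mast cells and platelets, and Cd37, a tetraspanin, from T cells and other leukocytes.

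All mice belonged to 1 model, overexpression of Cbx7, a chromobox protein of the polycomb repressive complex, and no mouse without it was measured. RNA came from unsorted single-cell suspensions of spleen. There were 7 mice labelled as T-cell leukemia (mice 2, 5, 4-1, 2-2, 5-1, 4-2 and 5-3), 4 as erythroid leukemia (mice 2-3, 5-5, 2-3-2 and 2-3-3) and 1 as undifferentiated leukemia (mouse 4-3). Mice 5-1 and 5-5 were each run on 2 arrays, which were averaged, and 1 further array carried no mouse or type. The labels give neither the age of the mice nor the cells in which Cbx7 was overexpressed, and they do not say what the numbers in the mouse names mark.

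Values are background-corrected, quantile-normalised log2 signals, and a probe was called detected where its deposited detection p was under 0.05. The arrays detected between 7382 and 12944 of 25697 probes. The fewest were on 2 erythroid arrays that stood apart, the repeat array of mouse 5-5 (7382) and the array of mouse 2-3-2 (7554); all others detected at least 10840. On those 2 arrays the lowest signal among detected probes was 6.15 and 6.09, against 4.82 to 5.14 on the others, so a low B-cell gene was harder to detect there. The types were checked against markers. Of 9 T-cell markers tested, 8 were lower in the erythroid than in the T-cell leukemias, and Cd3d, part of the CD3 complex, read 5.75 ± 1.31 (SD, n = 4) in the erythroid mice against 10.27 ± 0.89 (SD, n = 7). Of 10 erythroid markers, 5 were higher, and Klf1, an erythroid transcription factor that missed the threshold, was at 9.62 ± 0.23 (SD, n = 4) against 7.11 ± 1.86 (SD, n = 7). T-cell mouse 2-2 had 9.39 for Klf1, within the erythroid range.

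The amount of B-cell signal differed widely from mouse to mouse within a leukemia type. Among the T-cell leukemias, mouse 5 had 11 of the 13 probes detected, mouse 5-3 had 8 and mouse 2 had 6. Mice 5-1 and 4-2 had 4 each, mouse 2-2 had 3 and mouse 4-1 had 2. Among the erythroid leukemias, mouse 2-3 had 9 probes detected, mouse 2-3-3 had 3, and mice 5-5 and 2-3-2 had 1 each, counting for mouse 5-5 only probes detected on both of its arrays. The undifferentiated mouse 4-3 had 2. Over all probes of the array the detected share ran from 43.9% to 50.4% in 10 of the 12 mice, while for the B-cell probes it ran from 15.4% to 84.6% in those same mice.

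**Figure D1:**
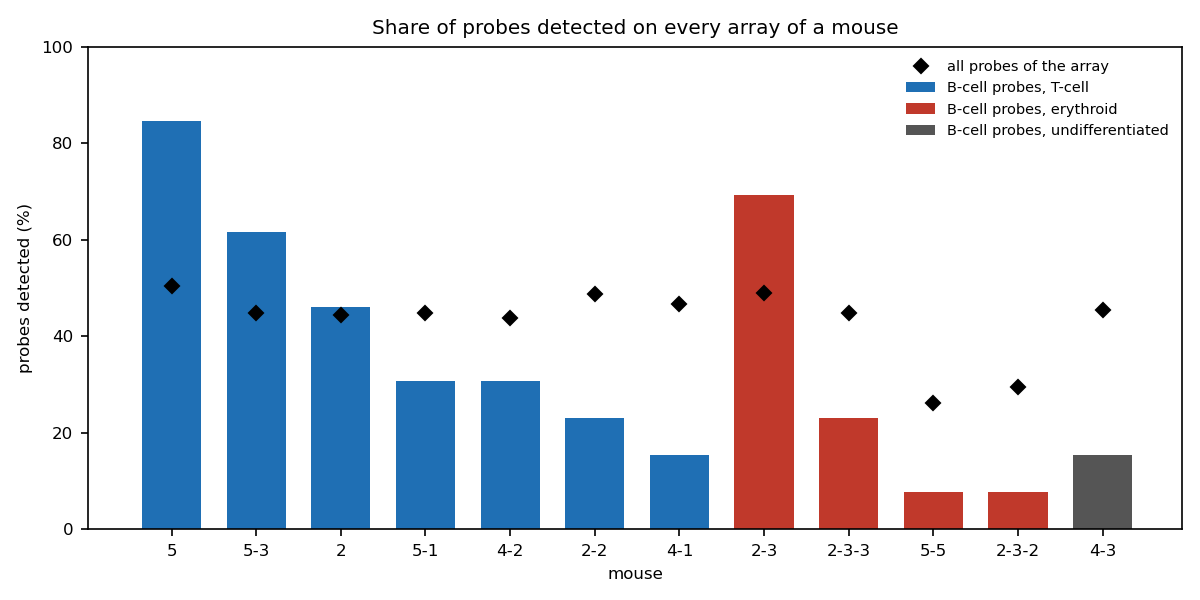
Percent of the 13 B-cell probes (bars, coloured by leukemia type) and of all 25697 probes (black diamonds) detected on every array of each mouse. Mice 5, 5-3 and 2 of the T-cell group and mouse 2-3 of the erythroid group lie above their diamond, with 84.6%, 61.5%, 46.2% and 69.2%; the other 8 mice lie below theirs.

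Averaged over the 6 genes other than Btk and Cd37, which were the genes still detected in the undifferentiated mouse, the log2 signal was highest in T-cell mouse 5-3 (6.31), followed by mice 5 (5.69) and 2 (5.44) and erythroid mouse 2-3 (5.33). It was lowest in undifferentiated mouse 4-3 (4.49) and T-cell mouse 4-1 (4.53). The 2 genes left out were the only ones detected in these 2 mice, so their low place follows in part from that choice. With Btk and Cd37 included, mouse 5-3 was again highest (6.33), but the lowest were mice 5-5 (4.93), 5-1 (5.02) and 2-3-3 (5.04), with mice 4-1 and 4-3 at 5.21 and 5.24. Mouse 5-3 had the highest value of the T-cell group for 5 of the 8 genes, and mouse 2-3 the highest of the erythroid group for 5 of 8. This order is a description of the same probes and was not tested.

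Cd79b was the one chain of the receptor with a probe. In the T-cell leukemias its log2 signal was lowest in mouse 4-1 (4.47), where it was not detected, had a median of 7.14 and was highest in mouse 5-3 (8.39), a 15.2-fold range within 1 type. In the erythroid leukemias it was 7.27 in mouse 2-3, 5.07 in mouse 5-5, 4.92 in mouse 2-3-3 and 4.40 in mouse 2-3-2. It was detected on 7 of 8 T-cell arrays, on 2 of 5 erythroid arrays and not on the undifferentiated array (4.38). One erythroid mouse thus had a level like the brighter T-cell mice, and the groups overlapped. On the unnormalised scale the probe read 285 with a bead standard error of 10.3 over 40 beads in mouse 5-3, and 104 with 4.05 over 32 beads in mouse 4-3. The erythroid minus T-cell difference was -1.23 ± 0.72 (SE, log2; 95% interval -2.80 to 0.33; limma, adjusted p = 0.285), so it did not pass the threshold. The T-cell mean was at least 3.17-fold above the undifferentiated mouse, a bound set by the lowest detected signal on that array, but the fitted difference did not pass either (adjusted p = 0.811). The 2 arrays of mouse 5-5 differed most for this probe, at 5.72 and 4.42, the lower value coming from the array with the fewest detected probes.

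The other Cd79b probe was dimmer and was detected on 4 arrays, those of T-cell mice 5, 4-2 and 5-3 (5.66, 5.69 and 6.12) and of erythroid mouse 2-3 (5.21). It also placed mouse 2-3 above the rest of its group, while mouse 2, bright with the first probe, was not detected with this one (4.74). Its erythroid minus T-cell difference was -0.47 ± 0.35 (SE, log2; limma over all probes, adjusted p = 0.407).

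**Figure D2:**
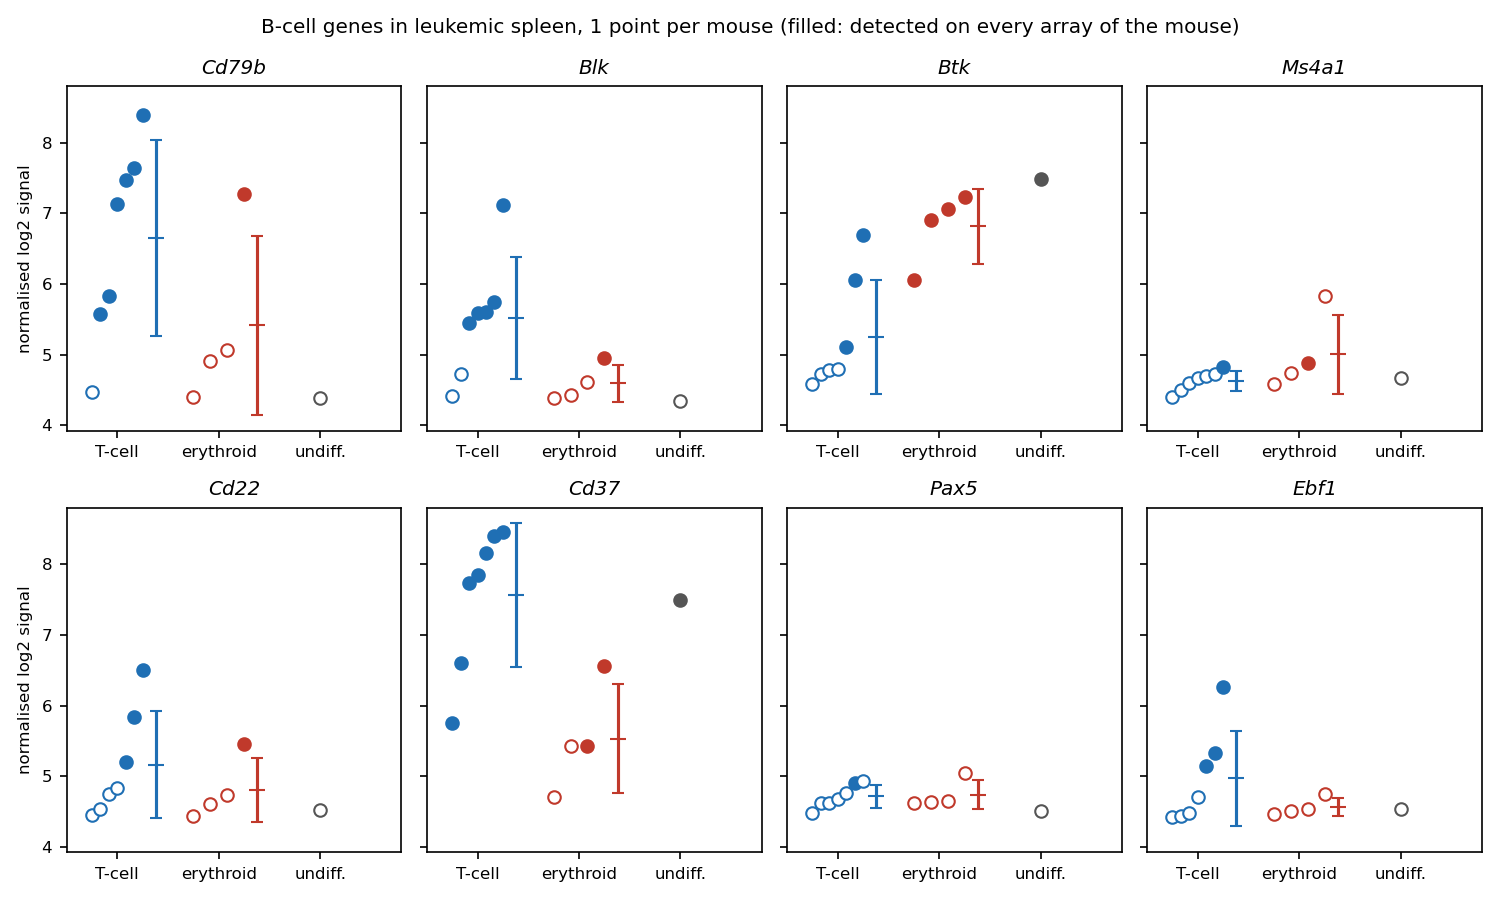
Normalised log2 signal of the brightest probe of each of the 8 genes, 1 point per mouse, by leukemia type; filled points were detected on every array of the mouse, open points were not, and the bars beside the groups of 7 and 4 mice are the mean and SD. Cd79b spans 4.47 to 8.39 in the T-cell leukemias, Btk lies at 6.05 to 7.23 in the erythroid ones, and Pax5 and Ms4a1 stay near the bottom, the open Ms4a1 point at 5.83 coming from an array whose lowest detected signal was 6.09.

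Blk, a Src-family kinase of B cells, was dimmer, with its highest and lowest T-cell values in the same mice as Cd79b. Its brightest probe read 7.12 in T-cell mouse 5-3, 5.75 in mouse 4-2, 5.61 in mouse 5, 5.60 in mouse 5-1, 5.45 in mouse 2, and was not detected in mice 2-2 (4.73) and 4-1 (4.41). In the erythroid leukemias this probe was detected in mouse 2-3 alone (4.95), with 4.38, 4.43 and 4.61 in mice 5-5, 2-3-2 and 2-3-3. The undifferentiated mouse was at 4.34, not detected, and the T-cell mean was at least 1.45-fold above it. Thus 5 of 7 T-cell mice carried a measurable signal, with 1 of them well above the others, and the T-cell and erythroid ranges overlapped. The difference was -0.93 ± 0.41 (SE, log2; 95% interval -1.82 to -0.04; limma, adjusted p = 0.161). Of the other probes of Blk, 1 was detected on 5 arrays and was highest in mouse 5-3 (6.15); among the erythroid mice it was detected in mouse 2-3-3 (5.23) and not in mouse 2-3 (4.77). The other was detected on none.

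Btk, a Tec-family kinase that passes on the signal of the B-cell receptor, was higher in the erythroid than in the T-cell leukemias. The other genes past the filter had lower erythroid means, though of these only Cd37 passed the threshold. Its log2 signal was 7.23, 7.07, 6.91 and 6.05 in erythroid mice 2-3-2, 2-3, 2-3-3 and 5-5, and 7.49 in the undifferentiated mouse. In the T-cell leukemias it was 6.70 in mouse 4-1, 6.06 in mouse 2-2 and 5.11 in mouse 2, and it was not detected in mice 5-1 (4.79), 4-2 (4.78), 5 (4.72) and 5-3 (4.58). Btk was therefore detected on all 5 erythroid arrays but on 3 of 8 T-cell arrays, and mice 4-1 and 2-2 overlapped with the erythroid group. Mice 5 and 5-3, which had most B-cell signal by the other genes, had no detected Btk. On the 2 arrays with the fewest detected probes, unnormalised Btk readings of 135 (mouse 2-3-2) and 109 (repeat of mouse 5-5) became 7.23 and 6.44. In T-cell mice 2 and 4-1, readings of 143 and 221 became 5.11 and 6.70. The array medians were 112 and 101 against 135 and 126. Erythroid mice 2-3 and 2-3-3 read 331 and 213. Under other scalings the erythroid minus T-cell change of Btk was smaller, at 1.08 (median scaling) and 1.36 (cyclic loess), and did not pass the threshold. The part of normalization in the value of each mouse was not tested. The means were 6.82 ± 0.53 (SD, n = 4) in the erythroid and 5.25 ± 0.81 (SD, n = 7) in the T-cell leukemias, a difference of 1.57 ± 0.41 (SE, log2), or 2.96-fold (limma, adjusted p = 0.0324).

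**Figure D3:**
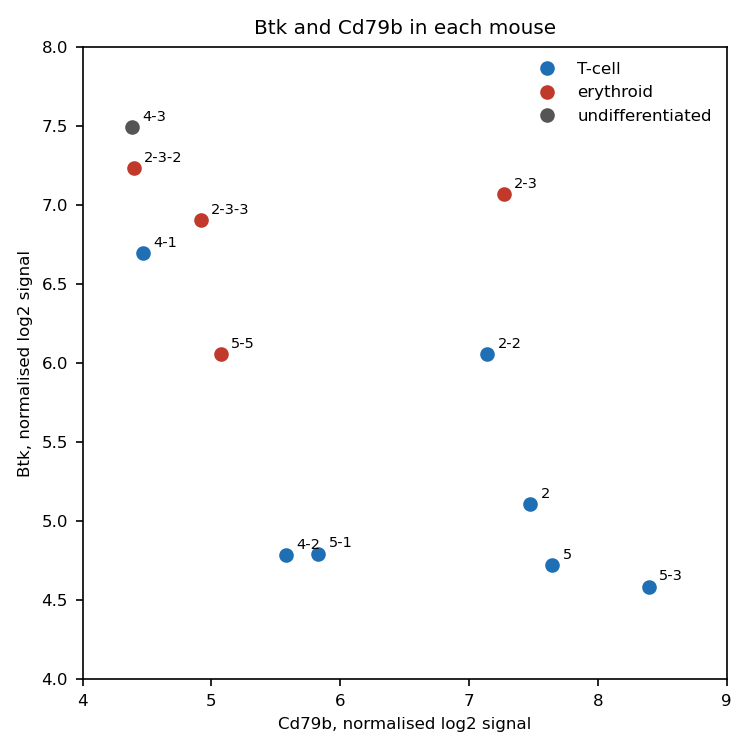
Normalised log2 signal of Btk (vertical) against Cd79b (horizontal), 1 labelled point per mouse, coloured by leukemia type. T-cell mice 5-3, 5 and 2 combine high Cd79b with low Btk, T-cell mouse 4-1 and undifferentiated mouse 4-3 combine low Cd79b with high Btk, and erythroid mouse 2-3 is high for both, at 7.27 and 7.07.

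Cd37, the tetraspanin, was lower in the erythroid leukemias. It was detected in every T-cell mouse, at 8.45 in mouse 2, 8.40 in mouse 5, 8.17 in mouse 5-3, 7.85 in mouse 4-1, 7.74 in mouse 4-2, 6.60 in mouse 2-2 and 5.75 in mouse 5-1. In the erythroid leukemias it was 6.57 in mouse 2-3, 5.43 in mouse 2-3-3, 5.42 in mouse 5-5 and 4.71 in mouse 2-3-2, where it was not detected. The undifferentiated mouse had 7.50, close to the T-cell mean. Mouse 2-3 lay above T-cell mouse 5-1, so the groups overlapped at their edges. The means were 5.53 ± 0.77 (SD, n = 4) in the erythroid and 7.56 ± 1.02 (SD, n = 7) in the T-cell leukemias, a difference of -2.03 ± 0.52 (SE, log2), so that Cd37 was 4.09-fold higher in the T-cell group (limma, adjusted p = 0.0290). T-cell mouse 4-1, which had the lowest Cd79b and Blk of its group, kept a Cd37 signal of 7.85.

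Both calls depended on single mice and arrays. Without the 2 arrays that detected the fewest probes, Btk was 1.30 ± 0.48 (SE, log2; adjusted p = 0.122) and Cd37 -1.59 ± 0.55 (adjusted p = 0.101) in limma. Among arrays numbered 1 to 8 alone, Btk differed by 0.91 (adjusted p = 0.480) and Cd37 by -1.22 (adjusted p = 0.392), and among arrays 9 to 16 by 2.12 (adjusted p = 0.0377) and -2.10 (adjusted p = 0.171). Under median scaling, where the median change of all genes was -0.22 in place of -0.03, the changes were 1.08 for Btk (adjusted p = 0.306) and -1.91 for Cd37 (adjusted p = 0.0784). The Btk call was lost without mouse 2 (adjusted p = 0.0637), 5 (0.0689), 4-2 (0.0634), 5-3 (0.0606), 2-3 (0.0545), 2-3-2 (0.0843) or 2-3-3 (0.0723), with changes of 1.43 to 1.54. The Cd37 call was lost without mouse 2 (adjusted p = 0.0598), 5 (0.0621), 4-2 (0.0556), 5-3 (0.0543), 5-5 (0.0792), 2-3-2 (0.0828) or 2-3-3 (0.0667), with changes of -2.003 to -1.76. Neither gene changed direction in any of these fits.

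Promoter windows are shown for 3 genes, the pair that passed the threshold in opposite directions (Btk and Cd37) and Cd22, whose levels followed the pattern of the set most closely. Each runs from 250 bases before to 50 bases after the RefSeq start on GRCm38.p6, read 5′ to 3′ on the strand of the gene. Capitals mark matches, on either strand, to CCCNNGGG (the core of the palindrome bound by EBF factors) and GAGGAA (a core of sites bound by PU.1, a factor of B and myeloid cells).
Btk, chrX:134583091-134583390, minus strand: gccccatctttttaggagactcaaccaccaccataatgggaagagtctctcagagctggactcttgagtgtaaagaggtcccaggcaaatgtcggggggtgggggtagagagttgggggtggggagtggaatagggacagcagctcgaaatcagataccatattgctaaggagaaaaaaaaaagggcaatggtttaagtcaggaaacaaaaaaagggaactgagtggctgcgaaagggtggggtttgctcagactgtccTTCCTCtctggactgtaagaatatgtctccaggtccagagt
Cd37, chr7:45238790-45239089, minus strand: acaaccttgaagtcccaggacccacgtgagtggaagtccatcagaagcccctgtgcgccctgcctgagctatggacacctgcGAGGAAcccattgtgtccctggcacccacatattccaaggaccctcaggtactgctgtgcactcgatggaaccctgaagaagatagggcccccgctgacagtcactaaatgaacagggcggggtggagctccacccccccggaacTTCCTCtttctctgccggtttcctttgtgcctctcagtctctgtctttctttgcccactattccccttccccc
Cd22, chr7:30878979-30879278, minus strand: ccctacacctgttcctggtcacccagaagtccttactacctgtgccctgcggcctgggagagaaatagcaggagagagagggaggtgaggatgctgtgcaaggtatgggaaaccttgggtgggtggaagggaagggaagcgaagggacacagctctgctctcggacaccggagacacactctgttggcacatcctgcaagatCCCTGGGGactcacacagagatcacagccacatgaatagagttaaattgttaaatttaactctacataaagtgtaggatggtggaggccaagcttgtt
The Btk window held 1 match to GAGGAA, whose first base is base 10 counted from the start, the Cd37 window held 2, and the Cd22 window held 1 match to CCCNNGGG, starting at position -48. Of 32851 windows of this length, 28.3% held GAGGAA and 13.7% held CCCNNGGG, so such a match is common and is given as a description. The octamer ATGCAAAT, found in 1.74% of all windows, was in none of the 3. Among windows of the set not shown, that of Cd79a and the Ebf1 window at chr11:44619978-44620277 held 1 match to GAGGAA each. The Pax5 window and the Ebf1 window at chr11:44617850-44618149 held no match to any of these motifs. Cd79b, Blk and Ms4a1 had no window in the sequences used.

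Cd22, a sialic-acid-binding coreceptor that dampens signalling of the B-cell receptor, was low throughout. Its brightest probe read 6.51 in T-cell mouse 5-3, 5.83 in mouse 5, 5.20 in mouse 2 and 5.46 in erythroid mouse 2-3, and was not detected in any of the other 8 mice (4.43 to 4.83). The 4 mice with a detected signal were the same 4 that stood highest for the mean over the set, of which Cd22 is itself a part. The erythroid minus T-cell difference was -0.35 ± 0.39 (SE, log2; 95% interval -1.19 to 0.48; limma, adjusted p = 0.583). The other probes of Cd22 ranked the mice a little differently: 1 was highest in mouse 5 (6.53), followed by 5-3 (6.26) and 2-3 (5.52), and the other was highest in mouse 2-3 (5.94), followed by mouse 5 (5.64), with mouse 5-3 at 4.70 and not detected.

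Ms4a1, which encodes the surface protein CD20, gave almost no signal. It was detected on 2 of 14 labelled arrays, those of T-cell mouse 5 (4.83) and erythroid mouse 2-3 (4.89). The T-cell mice ran from 4.41 to 4.83 with a median of 4.67, the undifferentiated mouse was at 4.68, and erythroid mice 5-5 and 2-3-3 were at 4.58 and 4.73. The highest value, 5.83 in erythroid mouse 2-3-2, was not a detected signal. In mouse 5-3, the mouse with the brightest Cd79b, this probe read 112 with a bead standard error of 3.25 and was not detected. In the fit without the filter, Ms4a1 differed by 0.37 between erythroid and T-cell leukemias (log2; limma, adjusted p = 0.335), from values that were mostly not detected.

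Ebf1 and Pax5, the transcription factors that set and keep B-cell identity, were near background in most mice. Ebf1 was detected in T-cell mice 5-3 (6.26), 5 (5.34) and 2 (5.15) and on no erythroid or undifferentiated array, where it read 4.46 to 4.75 and 4.53. The remaining T-cell mice were at 4.42 to 4.70. The difference between the types was -0.40 ± 0.33 (SE, log2; 95% interval -1.12 to 0.32; limma, adjusted p = 0.456). Pax5 was detected on 1 of 14 arrays, that of T-cell mouse 5 (4.90). The T-cell mice ranged from 4.48 to 4.93 for Pax5 and the erythroid mice from 4.62 to 5.04, with the highest value again not detected and from mouse 2-3-2. Without the filter its difference was 0.02 (log2; limma, adjusted p = 0.932).

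Of the 6 genes tested between erythroid and T-cell leukemias, 1 was higher (Btk) and 1 lower (Cd37) in the erythroid group by limma at an adjusted p under 0.05. Over all 10474 genes, 3.86% were called higher and 6.43% lower. No B-cell gene had all erythroid mice below all T-cell mice or all above, which held for 4.71% and 2.51% of all genes. Taking every probe past the filter, 2 of the 9 B-cell probes were called in either direction, against 10.5% of 14432 probes. The median change of the 6 genes was -0.67 on the log2 scale, and that of all genes -0.03. In bulk spleen, a difference in the number of B cells, in RNA of these genes per cell and in their use by other cells cannot be told apart.

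**Figure D4:**
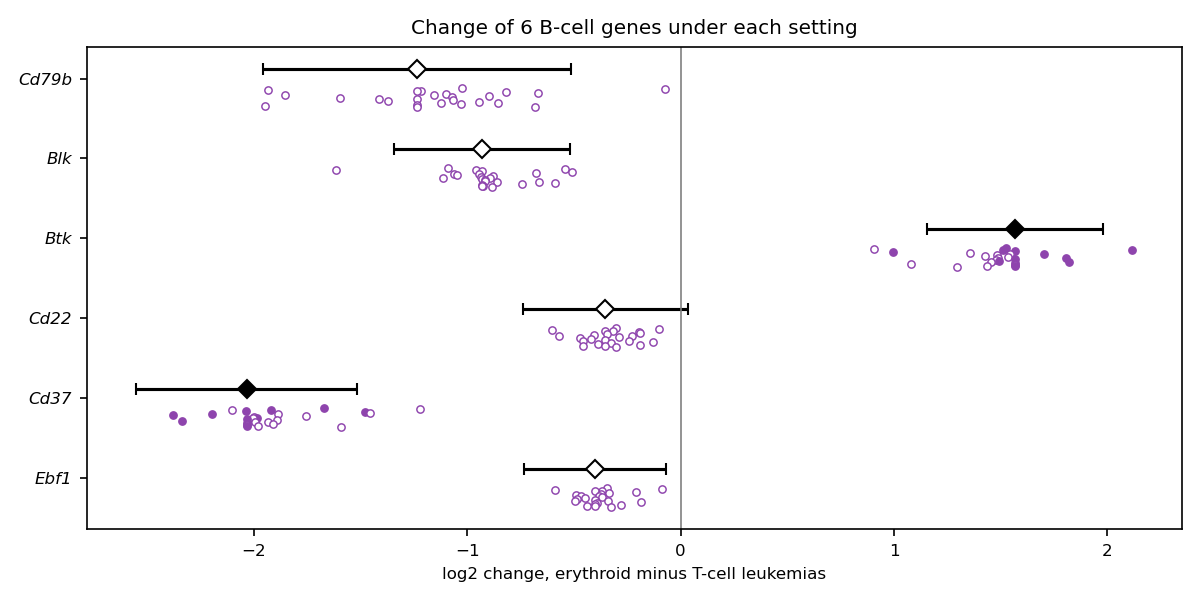
Log2 change, erythroid minus T-cell leukemias, of the 6 genes tested; diamonds with bars are the reported value and its SE, circles the other settings (25 for Btk and Cd37), and filled symbols have an adjusted p under 0.05. Btk stays between 0.91 and 2.12 and Cd37 between -2.38 and -1.22, with filled and open circles on both, while the other 4 genes have open circles throughout.

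The undifferentiated leukemia of mouse 4-3 had 2 of the 8 genes detected, Btk (7.49) and Cd37 (7.50). The other 6 were not detected in it, at 4.34 to 4.68. Against the T-cell leukemias, Btk differed by 2.24 ± 0.71 (SE, log2; limma, adjusted p = 0.341; unadjusted p = 0.00723) and Cd37 by -0.07 ± 0.88 (adjusted p = 0.999). Against the erythroid leukemias, Btk differed by 0.68 ± 0.74 (adjusted p = 0.942) and Cd37 by 1.96 ± 0.92 (adjusted p = 0.938; unadjusted p = 0.0535). None of the 6 genes passed in either comparison, where 0.0191% and 0.00955% of all genes did. With a single mouse, its spread was assumed to be that of the other groups.

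The T-cell leukemias were also compared by the first number of the mouse name. For Cd79b the mean was 7.31 for number 2, 5.03 for number 4 and 7.29 for number 5, and for Blk it was 5.09, 5.08 and 6.11. No B-cell gene passed the test over the 3 numbers (limma F test; lowest unadjusted p = 0.0654, for Cd79b), and 0.00955% of all genes did. The erythroid minus T-cell change of number 5 did not differ from that of number 2 at the threshold for any of the 6 genes, and 0% of all 10474 genes passed that test; at an unadjusted p under 0.05, 626 genes and 0 of the 6 did. For Btk the change was 1.35 within number 5 and 1.49 within number 2, and for Cd37 it was -2.02 and -1.96. Number 5 had a single erythroid mouse and number 4 had none.

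Other genes of the B-cell programme were taken from lists of receptor and coreceptor, signalling, transcription, surface, precursor and plasma-cell genes. Of 59 genes listed, 48 had a probe and 35 passed the filter. In the erythroid leukemias 0 of the 35 were higher, 2 were lower and 33 did not pass, with a median log2 change of -0.34; of all genes, 3.86% were higher and 6.43% lower. By list, the lower genes were 1 of 8 for transcription and 1 of 2 for precursors, and 0 of 3 receptor, 0 of 7 signalling, 0 of 10 surface and 0 of 5 plasma-cell genes passed.

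The 2 that fell were Bach2 and Il7r, which T cells also use. Bach2, a repressor of plasma-cell differentiation that also restrains T-cell activation, was at 7.54 ± 0.77 (SD, n = 7) in the T-cell and 5.18 ± 0.90 (SD, n = 4) in the erythroid leukemias, a change of -2.37 ± 0.46 (SE, log2; limma, adjusted p = 0.00957). Its highest erythroid mouse, again 2-3 at 6.36, lay just above T-cell mouse 5-1 at 6.28. Il7r, the receptor chain for interleukin 7 on lymphoid precursors and T cells, was at 9.69 ± 1.10 (SD, n = 7) and 6.92 ± 1.00 (SD, n = 4), a change of -2.77 ± 0.58 (SE, log2; limma, adjusted p = 0.0133). With this probe the types did not overlap, as for 4.71% of all genes in this direction, but with another Il7r probe erythroid mouse 2-3-2 (6.54) lay above T-cell mouse 5-1 (6.49). Both moved with the T-cell markers, summarised as the log2 of their summed linear signals. This level was 11.15 to 13.22 in the T-cell mice and 9.07 to 9.82 in the erythroid mice. The part of T-cell RNA in these 2 changes, and in that of Cd37, was not tested.

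Vpreb1, a surrogate light chain of B-cell precursors, was detected on 0 of 14 arrays (4.27 to 4.83), and Ighm and Igll1 had no probe under their symbols.

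**Figure D5:**
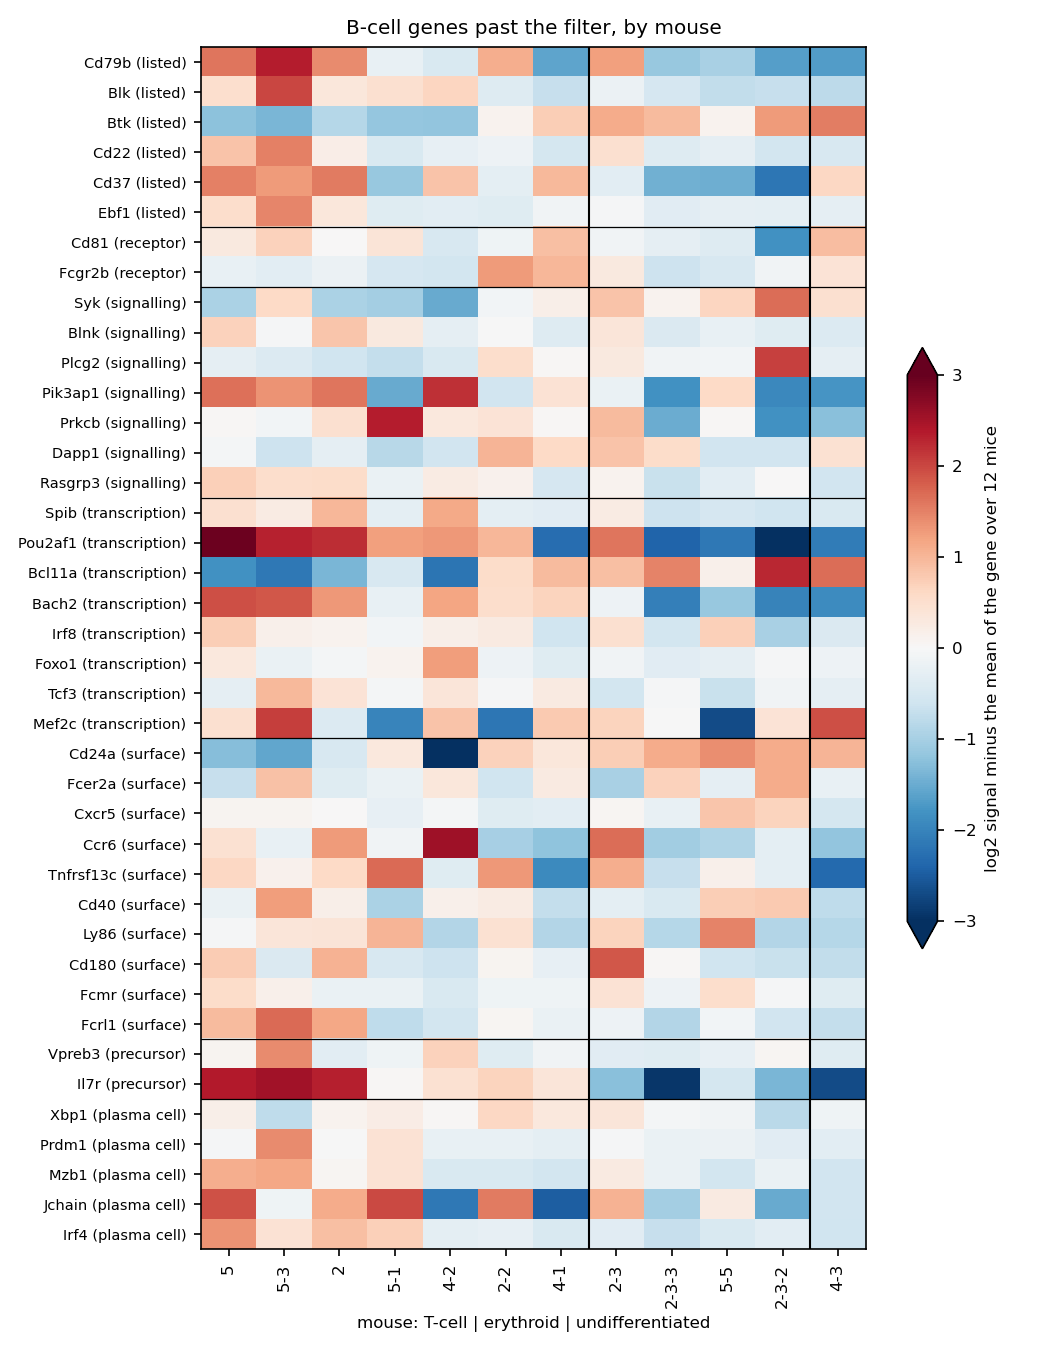
Log2 signal minus the mean of the gene over 12 mice, for the 6 B-cell genes tested and 34 of the further genes past the filter, with mice in columns by leukemia type and genes in rows by list. Mice 5, 5-3 and 2 are red for Cd79b and Bach2, and those 3 mice are blue for Btk and Bcl11a; erythroid mouse 2-3 is red for Cd79b, Btk and Bcl11a.

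The mice that carried the core genes also had the most of the wider genes detected: 34 of 35 in mouse 5, 31 in mouse 2-3, 30 in mouse 5-3 and 29 in mouse 2. The fewest were in erythroid mice 2-3-2 (12), where few probes of any kind were detected, and 5-5 (14), for which a gene had to be detected on both arrays, followed by mice 4-3 and 2-3-3 with 17 each. T-cell mouse 4-1 had 19. Within the T-cell group, detection of the wider genes thus ranged from 19 to 34 of 35. Over all probes the detected share was 50.4%, 49.1%, 44.9% and 44.5% in mice 5, 2-3, 5-3 and 2. It was 46.8%, 45.5% and 44.8% in mice 4-1, 4-3 and 2-3-3. The 35 genes had passed the filter on detection, whereas these shares also cover probes that failed it, so they are not a like background. The detected share of all genes past the filter was not computed for each mouse, so these counts are a description. Some of the 35 genes, such as Bach2 and Il7r, are also used by T cells.

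Btk moved against the other genes tested, and the lists of other cells in which it is known were examined beside it. Levels of each list are again the log2 of the summed linear signals. Of 10 monocyte and macrophage markers tested 0 passed, with a level of 8.60 to 11.28 in T-cell and 8.71 to 11.24 in erythroid mice. Their median change was 0.53. Csf1r, the receptor for macrophage colony-stimulating factor, was at 5.44 ± 0.55 (SD, n = 7) and 6.35 ± 0.77 (SD, n = 4), with an adjusted p of 0.131 in limma, and Lyz2, a lysozyme of myeloid cells, at 5.46 and 5.25. Of 6 megakaryocyte markers 0 passed, at 9.02 to 10.41 and 10.06 to 11.20, with a median change of 1.78. Of 6 mast-cell and basophil markers 0 passed, at 7.99 to 12.84 and 10.45 to 12.03. Hdc alone gave much of these sums, at 11.42 ± 2.25 (SD, n = 7) and 10.42 ± 1.09 (SD, n = 4). Of 7 neutrophil markers 0 passed, at 7.75 to 13.52 and 8.21 to 12.81, with S100a8, a calcium-binding protein of neutrophils, at 6.52 and 6.42. The erythroid markers had 5 of 10 higher, at 9.80 to 13.61 and 13.64 to 14.34. The part of any of these cells in the Btk change was not tested.

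Antigen presentation through MHC class II is shared by B cells and dendritic cells. Of 9 genes of that list, 2 were lower in the erythroid leukemias (6.43% of all genes were). The log2 of their summed linear signals was 11.86 to 13.12 in T-cell and 11.75 to 12.06 in erythroid mice. Siglech, a gene of the list outside class II, weighed heavily in these sums, with means of 11.50 in T-cell and 11.43 in erythroid mice. In mouse 2-3-2, with the sum of 12.06, Siglech read 11.93, Cd74 4.50, H2-Aa 4.56, H2-Ab1 7.00 and H2-Eb1 6.71. The mean over the list was highest in mouse 5-3 among the T-cell and in mouse 2-3 among the erythroid mice. Of 4 natural killer markers and of 4 stromal markers 0 passed.

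The pattern of the set over the 12 mice was summarised as the mean of the 6 tested genes, each centred on its own mean. It was highest in mouse 5-3 (1.21), then in mice 5 (0.63), 2 (0.51) and 2-3 (0.38), and lowest in mouse 2-3-2 (-0.68). Of the 6 genes themselves, which are part of this mean, Cd22 followed it most closely (r = 0.93), then Ebf1 (0.89), Cd79b (0.88), Cd37 (0.77) and Blk (0.76), while Btk ran against it (r = -0.51). Among all other genes tested, the 8 with the highest Pearson r over the 12 mice included Arfl4 (0.93), Naip7 (0.91), LOC100047815 (0.90), LOC100046056 (0.90), Prdm9 (0.89), Fcrl1 (0.88) and 6330403K07Rik (0.88). Fcrl1 is an Fc receptor-like protein of B cells. The 4 lowest were Gtf2e2 (-0.90), Dtl (-0.89), Smc2 (-0.87) and Pola1 (-0.85). Under median scaling 6 of the 8 stayed among the 50 most alike, but 0 of the 4 did. The points share their arrays and their normalization, and the correlations are a description.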

How the data were processed

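Spleen RNA of 12 labelled mice was measured on 14 Illumina bead arrays. The authors deposited a mean bead intensity, its bead standard error, a count of beads and a detection p-value per probe and array, without normalization between arrays. The authors also deposited processed log2 values, made with limma and R 3.0.2 per the submitters' processing notes; the image software and normalization method are not given in the sources used here. RNA was amplified as whole transcriptome before labelling, per the labels' protocols.

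From the intensities, limma 3.58.1 in R 4.3.3 gave a normexp correction (negative controls inferred from the detection p-values; offset 16), followed by quantile normalization over 15 arrays and log2. The offset shrinks fold changes of dim probes. Probes detected at p under 0.05 on 3 of the 14 labelled arrays or more were kept (14432 probes), arrays of a mouse were averaged and the brightest probe stood for a gene (10474 genes). Symbols were updated through a RefSeq table of GRCm38.p6 (3677 renamed, 1061 unmatched); promoters came from RefSeq on the same build. lmFit and eBayes compared the types over mice, two-sided, with Benjamini-Hochberg adjustment over all genes at a threshold of 0.05. The erythroid minus T-cell comparison alone was tested on simulated data. Nothing in the labels says that the mice are independent litters or donors, and the number of arrays limits the precision.

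The genes followed, the further lists and the tests were chosen with earlier results of these data known. Named are all genes of the set, up to 3 genes past the threshold per B-cell list, Ighm, Vpreb1 and Igll1, 5 marker genes, and the most and least alike genes; 1 gene that the rule names is not reported here. Alternatives covered scaling, background offset, filters, the authors' values, probe choice, weak arrays, array number, repeat arrays, a block for the first number of the mouse name, and each mouse left out.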

Additional observations from a re-analysis of the deposited data

Results flagged for a closer look

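Of 26 sets of values, each a probe in 1 leukemia type, 6 had a mouse far from the others of its type by Dixon's criterion, which chance meets in about 1 in 20. Erythroid mouse 2-3 stood above the other erythroid mice for the dimmer Cd79b probe (5.21) and for 2 of the 3 Cd22 probes (5.52 and 5.94), all detected. T-cell mouse 5 stood above its group for 1 Cd22 probe (5.64) and T-cell mouse 5-3 for 1 Blk probe (6.15). Erythroid mouse 2-3-2 was highest of its group for Pax5 (5.04), a value that was not detected, on 1 of the 2 arrays with the fewest detected probes.

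The array with neither mouse nor type in its labels, which entered no comparison, had 3 of the 13 B-cell probes detected: the brighter Cd79b probe at 5.62, the brightest Blk probe at 5.60 and Cd37 at 6.50. Btk was not detected on it (4.55).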

How the results depend on the processing

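The erythroid minus T-cell comparison called 2 of the 6 B-cell genes and 1078 genes in all. The number of B-cell genes called was 0 under median scaling, cyclic loess, no filter, without the 2 weakest arrays and among arrays 1 to 8, and 1 (Btk) among arrays 9 to 16. It was 0 to 2 with each mouse left out. Over all genes the count was 427 under median scaling, 579 without a filter, 579 without the 2 weakest arrays, 0 among arrays 1 to 8, 180 among arrays 9 to 16, and 466 to 1474 with each mouse left out. Genes called higher were 10.1% of the calls under median scaling and 37.5% in the reported fit. Btk passed in 7 and Cd37 in 6 of 13 settings that kept every mouse or changed the arrays used. Several of these passes came from settings close to the reported fit. The authors' values had a correlation of at least 0.999978 with these on each array. A filter of 7 arrays and the mean of probes left Btk at 1.57 and Cd37 at -2.03. The fit with arrays 1 to 8 and 9 to 16 as blocks counted repeat arrays as separate samples. Each gene passed in 5 of 12 fits with a mouse left out. Both kept their direction in all 25, with limma adjusted p from 0.0131 to 0.480 for Btk and 0.00584 to 0.392 for Cd37. In 98 results, each of 1 gene under 1 setting, the other 4 genes never passed and kept their direction.

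The first number of the mouse name as a block gave 0 B-cell genes (Btk 1.44, adjusted p = 0.0976; Cd37 -1.98, adjusted p = 0.133) and 109 genes in all. Mice of different type with the same number had a median r of 0.00 over 9 pairs (-0.29 to 0.38). Pairs of different numbers had 0.02 over 19 pairs (-0.44 to 0.40). These pairs share mice and none lies within a type, so they cannot decide whether the number marks related mice.

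Changes that turned direction had no call. Cd37 in the undifferentiated against the T-cell leukemias was 0.28 under median scaling and -0.371 to 0.0787 with each mouse left out, its difference in change between numbers 5 and 2 was 0.28 under cyclic loess, and Ebf1 in the undifferentiated against the erythroid leukemias was -0.0656 to 0.0321 with each mouse left out. The leave-one-mouse-out fits of the undifferentiated comparisons were chosen after seeing the data. The causes were not tested. Signal near background limits Ms4a1, Pax5 and Ebf1.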

Other observations

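Beyond the genes described, 2 transcription factors of the wider lists differed widely between mice without passing the threshold. Pou2af1, a coactivator of octamer factors in B cells, was at 10.00 ± 1.71 (SD, n = 7) in the T-cell and 7.10 ± 2.28 (SD, n = 4) in the erythroid leukemias, with 10.37 in erythroid mouse 2-3 and 6.47 in T-cell mouse 4-1 (change -2.90 ± 1.01, SE, log2; limma, adjusted p = 0.0845). Bcl11a, a repressor used in early B cells and in globin switching, was at 5.73 ± 1.29 (SD, n = 7) and 7.85 ± 0.89 (SD, n = 4), with 8.32 in the undifferentiated mouse (change 2.13 ± 0.63, SE, log2; adjusted p = 0.0502). Both were chosen after their values were seen.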
